A study of Mus musculus with 6 samples.

Results

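The genes described here, apart from *Cd274*, serve the presentation of peptides on major histocompatibility complex (MHC) class I molecules. They were measured in mouse ovarian surface epithelial cells before and after spontaneous transformation. They were chosen by symbol and not by a cut on a measured value, though earlier results of these data were known. They comprise 10 of the 20405 genes in the table: *H2-K1*, *H2-D1*, *B2m*, *Tap1*, *Tap2*, *Tapbp*, *Psmb8*, *Psmb9*, *Psmb10* and *Cd274*. All 10 were found, each with 1 probe set. M0505 is a line of ovarian surface epithelial cells of FVB/N mice established in 2005 and used at early passage, and STOSE is the line that arose from it during long culture. Both are single lines grown in the same medium with serum, EGF, ITSS and antibiotics, with no added treatment. Total RNA of 3 M0505 and 3 STOSE samples, labelled as biological replicates, was measured on Mouse Gene 1.0 ST microarrays (Affymetrix). Since nothing says that a line was derived more than once, the p-values measure the spread between cultures of these lines only.

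A class I molecule shows fragments of the cell's own proteins to CD8+ T cells. Proteasomes cut the proteins, and interferon-gamma adds the catalytic subunits encoded by *Psmb8*, *Psmb9* and *Psmb10*, which form the immunoproteasome. The TAP transporter, a dimer of the *Tap1* and *Tap2* products, carries the peptides into the endoplasmic reticulum. There tapasin, encoded by *Tapbp*, holds the empty class I molecule to TAP while peptide is loaded onto a heavy chain such as those of *H2-K1* and *H2-D1*, paired with the light chain β2-microglobulin from *B2m*. *Cd274* encodes PD-L1, a surface ligand that restrains T cells. Interferon-gamma induces genes of all of these steps, and the transactivator NLRC5 acts on many of them.

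The promoters of several of these genes are shown because neighbours and near-identical copies share regulatory sequence. RefSeq promoter windows, which run from 250 bases before to 50 bases after a start on GRCm38.p6, matched 9 of the 10 genes, with none for *Tap2*. The sequences are those of the C57BL/6J reference, while the cells are FVB/N. *Psmb9* and *Tap1* start on opposite strands of chromosome 17 with 225 bases between the starts, so that their windows have 275 bases in common. This stretch lies at chr17:34187306-34187580 and is written 5′ to 3′ on the plus strand, the strand of *Tap1*. Capitals mark matches to GGG and CC separated by any 5 bases, the core of a kappa-B site, on either strand.

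Psmb9 and Tap1: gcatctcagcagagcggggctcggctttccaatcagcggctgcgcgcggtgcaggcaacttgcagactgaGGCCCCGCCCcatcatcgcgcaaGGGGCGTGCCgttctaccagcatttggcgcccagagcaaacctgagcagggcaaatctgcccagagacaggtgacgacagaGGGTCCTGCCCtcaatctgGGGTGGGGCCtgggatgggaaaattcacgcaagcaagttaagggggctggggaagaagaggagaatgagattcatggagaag

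The heavy chain genes *H2-K1* and *H2-D1* are shown over 136 bases, from the minus strand at chr17:34000349-34000484 and from the plus strand at chr17:35262897-35263032. The stretches were identical at 124 of 136 bases (91.2%) without gaps. Capitals mark, in order, the kappa-B cores, TGACGC (the X2 half-site of the X box) and the Y box core CCAAT on the opposite strand.

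H2-K1: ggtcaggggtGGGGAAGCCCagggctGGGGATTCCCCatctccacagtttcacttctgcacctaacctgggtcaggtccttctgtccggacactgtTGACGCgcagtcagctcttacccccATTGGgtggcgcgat

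H2-D1: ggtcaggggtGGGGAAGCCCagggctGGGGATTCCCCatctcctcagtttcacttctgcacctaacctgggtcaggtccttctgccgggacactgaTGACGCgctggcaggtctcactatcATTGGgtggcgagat

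*Psmb8*, the gene with the largest measured log2 difference among the 10, is shown over its whole window at chr17:34197945-34198244 on the plus strand. Capitals mark TTCNNNGAA, the core of a gamma-activated site.

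Psmb8: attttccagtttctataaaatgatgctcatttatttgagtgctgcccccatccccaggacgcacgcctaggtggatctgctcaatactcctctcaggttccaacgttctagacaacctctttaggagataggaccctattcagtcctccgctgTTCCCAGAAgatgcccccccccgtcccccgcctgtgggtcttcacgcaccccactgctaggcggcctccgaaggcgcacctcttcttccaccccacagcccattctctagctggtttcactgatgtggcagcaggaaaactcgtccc

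Both strands were searched, and matches of a motif or of different motifs may overlap. The kappa-B core was found in 5 of the 9 genes with a window (*H2-K1*, *H2-D1*, *B2m*, *Tap1* and *Psmb9*) and in 53.5% of all 27025 genes with a window. TGACGC was found in *H2-K1* and *H2-D1* and in 8.37% of all genes, and the Y box core CCAAT in 6 of the 9 and in 41.1%. The gamma-activated core was found in *Psmb8* alone of the 9 and in 9.55% of all genes. GAAA repeated after any 2 bases, the core of an interferon-response element, was found in *B2m* alone of the 9 and in 3.99%. A match is a description of letters and not of binding. Only these exact letters were searched, so a gene without a match may still carry a variant of the element.

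The values are robust multi-array average (RMA) signals on a log2 scale. Replicates of a line correlated with r from 0.997 to 0.999, and arrays of different lines with r from 0.943 to 0.95 (Pearson, across genes, which are not independent samples). Keratin 7, keratin 18, *Wt1*, *Upk3b* and *Msln*, all markers of the ovarian surface epithelium, were bright in both lines, at mean log2 values from 10.23 to 12.25, while *Lhx9* and *Cdh1* lay near background. Of the 15 surface epithelium markers measured, 6 were called lower in STOSE cells and 0 higher (median log2 difference −0.63). At the adjusted p alone 11 were lower and 1 higher, and the bright markers just named were all among the lower. Of the 6 called lower, keratin 7 fell from 11.26 to 10.23, *Gata4* to 9.40 and *Podxl* to 9.19. *Krt8* and *Krt19* fell to 6.82 and 5.61, and *Aldh1a2* fell to 3.95, under the background mark given next. As a mark of background, the 95th percentile of the 1134 probe sets of olfactory receptor genes was 4.72. Of 18 leukocyte markers, 12 lay under it in both lines, among them *Ptprc*, the pan-leukocyte marker CD45, at 3.79 in M0505 and 3.81 in STOSE cells. The mean of the leukocyte list ranged from 4.52 to 4.53 over the M0505 arrays and from 4.53 to 4.57 over the STOSE arrays. Of these markers *Cd68* was called lower in STOSE cells, from 9.78 to 6.96, and 0 were called higher. At the adjusted p alone 5 were higher and 1 lower, with *Cd14* the largest of the rises (from 5.78 to 6.75, adjusted p = 0.000105 from limma), and it was called higher with each array centred on its median. Of 8 endothelial and of 8 granulosa and theca markers, *Kdr* (from 9.58 to 4.41) and *Inha* (from 9.61 to 5.68) were called lower and 0 higher. The part of these markers in the results below was not tested.

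STOSE cells had more RNA of all 3 immunoproteasome subunits, less of tapasin and *Tap1*, more of *Tap2* and *Cd274*, and slightly more of the heavy and light chains. Calls required at least a 2-fold difference together with an adjusted p under 0.05 (limma, Benjamini-Hochberg adjustment over all 20405 genes). On this rule 2 of the 10 genes, *Psmb8* and *Psmb10*, were called higher in STOSE cells, and *Tapbp* was called lower, beside 4.90% higher and 7.59% lower among all genes. At the adjusted p alone 8 were higher and 2 lower, beside 31.6% and 24.8% of all genes. The 3 STOSE arrays lay entirely above the 3 M0505 arrays for these 8 genes and entirely below them for *Tapbp* and *Tap1*, against 37.6% and 27.0% of all genes. The counts of each list, above and below, are likewise to be set beside these shares of all genes. The median log2 difference of the 10 genes was 0.50, and that of all genes was 0.08. In these bulk samples a change in the share of cells that express a gene and a change in RNA per cell cannot be told apart.

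**Figure D1:**
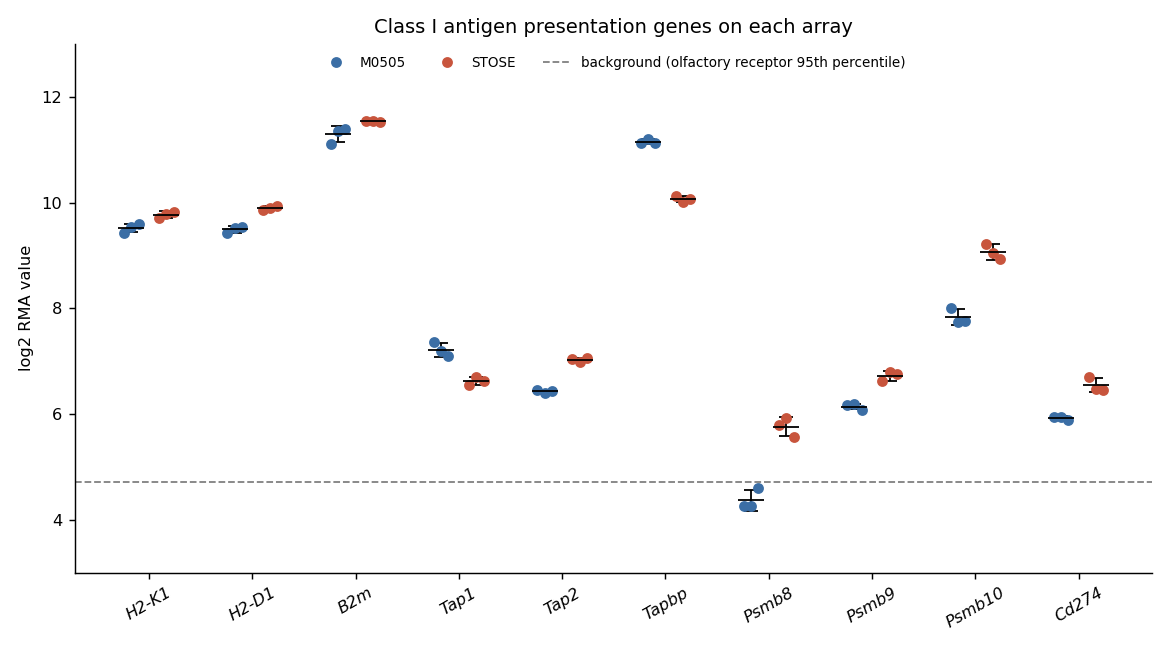
Log2 RMA values (vertical axis) of the 10 genes on each of the 3 M0505 and 3 STOSE arrays, with the mean and SD as black bars and the olfactory receptor 95th percentile of 4.72 as a dashed line. The points of the lines do not overlap for any gene, and only the M0505 points of *Psmb8* lie under the dashed line.

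*Psmb8* and *Psmb10* had the largest measured rises of the 10 genes, and the third immunoproteasome gene, *Psmb9*, ranked below *Cd274* and *Tap2*. *Psmb8*, which encodes the subunit β5i, was at 4.26, 4.26 and 4.60 in M0505 replicates 1 to 3 and at 5.79, 5.92 and 5.57 in STOSE replicates 1 to 3. Its 3 M0505 values lay under the background mark and its STOSE values above it. The log2 difference as measured was 1.39 (standard error 0.12, adjusted p = 2.02e-05 from limma). With the M0505 arrays raised to the background mark, the rise was at least 2.06-fold.

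*Psmb10*, which encodes β2i and lies on chromosome 8, apart from the MHC, was at 7.9999, 7.74 and 7.76 in M0505 cells and at 9.22, 9.04 and 8.93 in STOSE cells. All 6 arrays were above the background mark, and each STOSE array was above each M0505 array. This was a rise of 2.34-fold (log2 difference 1.23, standard error 0.10, adjusted p = 1.24e-05 from limma). *Psmb9*, which encodes β1i, was at 6.16, 6.19 and 6.08 in M0505 cells and at 6.62, 6.80 and 6.76 in STOSE cells. Its rise was smaller, 1.50-fold (log2 difference 0.58, standard error 0.07, adjusted p = 0.000121 from limma), and was under the 2-fold threshold.

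Each immunoproteasome subunit takes the place of a constitutive one in newly built proteasomes. The constitutive partners moved little: *Psmb5* was lower in STOSE cells by 1.21-fold (adjusted p = 0.00245 from limma), and *Psmb6* and *Psmb7* were higher by 1.22-fold (adjusted p = 0.00225) and 1.26-fold (adjusted p = 0.000977). Within each array, the difference of log2 values between *Psmb8* and *Psmb5* ranged from −7.72 to −7.33 in M0505 cells and from −6.10 to −5.75 in STOSE cells. The shift between the lines was 1.66 as measured, and at least 2.49-fold with the *Psmb8* signal of the M0505 arrays raised to the background mark. For *Psmb10* over *Psmb7* it was 0.89, or 1.85-fold, and for *Psmb9* over *Psmb6* 0.29, or 1.22-fold. The arrays of the lines did not overlap in any of the 3 pairs. The two-sided exact permutation p was 0.1 for each pair, which is the smallest that 3 arrays against 3 allow, and 0.1 after Benjamini-Hochberg adjustment over the 3 pairs.

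**Figure D2:**
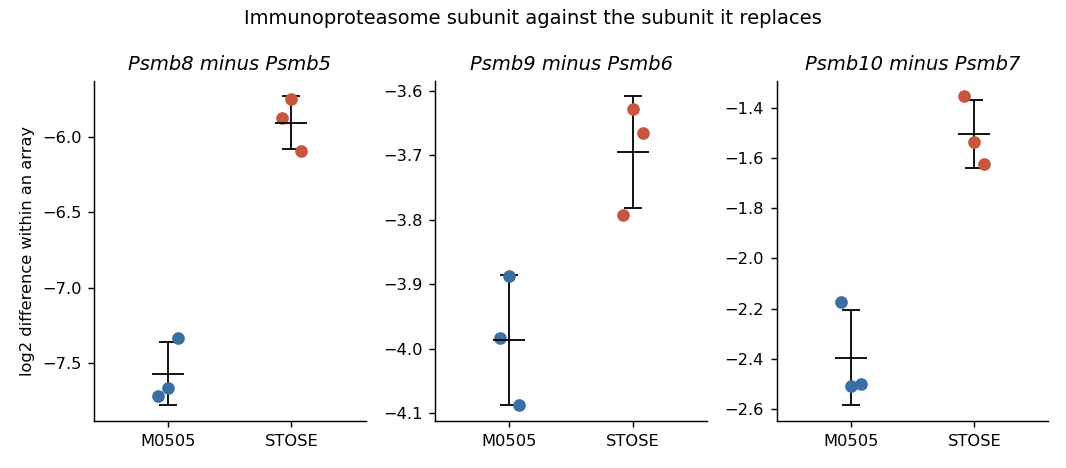
Difference of log2 values within each array (vertical axes, each panel with its own range) between an immunoproteasome subunit and the constitutive subunit it replaces, with mean and SD over 3 arrays a line. STOSE arrays lie above M0505 arrays in each panel, with mean shifts of 1.66, 0.29 and 0.89, the first of which rests on M0505 signals of *Psmb8* under the background mark.

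Of the 14 constitutive core subunits, 0 were called changed at 2-fold. At the adjusted p alone 7 were higher and 2 lower, and the list had a median log2 difference of 0.23. The interferon-inducible activator PA28 was not higher at the adjusted p: *Psme1* was lower in STOSE cells by 1.21-fold (log2 difference −0.28, standard error 0.07, adjusted p = 0.00700 from limma), and *Psme2* had a log2 difference of −0.04 with a 95% interval from −0.21 to 0.13 (adjusted p = 0.677).

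In peptide transport and loading, tapasin fell most. *Tapbp* was at 11.13, 11.20 and 11.13 in M0505 cells and at 10.13, 10.01 and 10.06 in STOSE cells. The replicates of each line lay within 0.12 of each other, and the lines were about 1 log2 unit apart. The fall was 2.12-fold (log2 difference −1.09, standard error 0.06, adjusted p = 1.49e-06 from limma), close to the 2-fold threshold. With each array centred on its median it was −0.89, which is under 2-fold.

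The TAP subunit genes moved in opposite directions. *Tap1* was at 7.36, 7.18 and 7.09 in M0505 cells and at 6.54, 6.70 and 6.63 in STOSE cells, a fall of 1.50-fold (log2 difference −0.59, standard error 0.08, adjusted p = 0.000378 from limma). *Tap2* was at 6.46, 6.41 and 6.43 in M0505 cells and at 7.04, 6.98 and 7.06 in STOSE cells, a rise of 1.51-fold (log2 difference 0.59, standard error 0.06, adjusted p = 3.23e-05). Neither reached 2-fold. Within an array, *Tap2* minus *Tap1* averaged −0.78 ± 0.12 (SD, n = 3) over the M0505 arrays and 0.40 ± 0.11 (SD, n = 3) over the STOSE arrays, so that the balance between the signals shifted by 1.18. Levels of different probe sets have no common scale, and this shift does not say which subunit was in excess.

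*Psmb9* and *Tap1*, whose starts face away from each other across the sequence printed first, also differed in direction. *Psmb9* minus *Tap1* within an array averaged −1.07 ± 0.11 (SD, n = 3) for M0505 and 0.10 ± 0.03 (SD, n = 3) for STOSE, a shift of 1.17. It was negative on every M0505 array and positive on every STOSE array. These within-array differences of *Tap2*, *Psmb9* and *Tap1* were chosen after their values were seen and were not tested.

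Of the 21 genes listed for peptide transport, loading and trimming, *Tapbp* alone was called at 2-fold, and at the adjusted p alone 6 were higher and 4 lower (median log2 difference 0.05). *Erap1*, the aminopeptidase that trims peptides in the endoplasmic reticulum, was lower in STOSE cells by 1.33-fold (adjusted p = 0.00335 from limma). The chaperones that share the loading complex with tapasin differed little: *Calr*, which encodes calreticulin, had a log2 difference of 0.07 (95% interval −0.07 to 0.21, adjusted p = 0.366), and *Pdia3*, which encodes the disulfide isomerase ERp57, had one of −0.13 (95% interval −0.27 to 0.02, adjusted p = 0.113).

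The class I chains themselves were bright in both lines and differed by less than 1.4-fold. *H2-K1* was at 9.43, 9.53 and 9.59 in M0505 cells and at 9.70, 9.79 and 9.83 in STOSE cells, a rise of 1.19-fold (log2 difference 0.25, standard error 0.07, adjusted p = 0.0119 from limma). *H2-D1* was at 9.42, 9.52 and 9.54 in M0505 cells and at 9.87, 9.90 and 9.94 in STOSE cells, a rise of 1.33-fold (0.41, standard error 0.06, adjusted p = 0.000503). The gap between the lines was narrow for *H2-K1*, with 9.59 as the highest M0505 value and 9.70 as the lowest STOSE value. Class I heavy chain genes are near-identical copies whose probes may share RNA, so how these differences divide among the copies is uncertain.

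*B2m* was at 11.12, 11.36 and 11.40 in M0505 cells and at 11.54, 11.55 and 11.52 in STOSE cells. The STOSE arrays lay within 0.03 of each other, and M0505 replicate 1 lay apart from the other M0505 arrays. The rise was 1.18-fold (log2 difference 0.24, standard error 0.08, adjusted p = 0.0336 from limma). It was not past the adjusted p without M0505 replicate 1 (log2 difference 0.15, adjusted p = 0.0604), nor without STOSE replicate 1, 2 or 3 (adjusted p = 0.0665, 0.0824 and 0.0679).

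**Figure D3:**
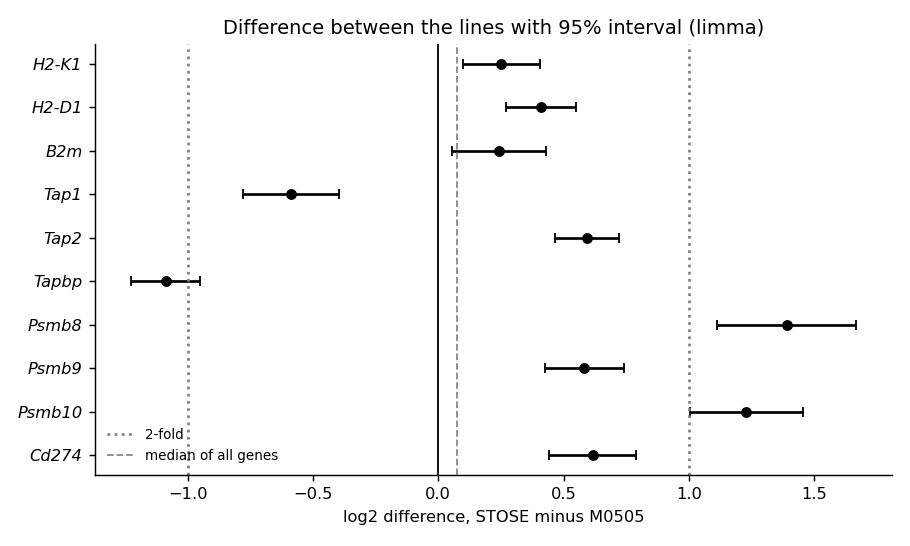
Log2 difference between STOSE and M0505 cells (horizontal axis) for each gene, with the 95% interval from limma. Dotted lines mark 2-fold and the dashed line the median of all genes, 0.08; *Tapbp* and *Tap1* lie to the left of 0, and the estimates of *Psmb8*, *Psmb10* and *Tapbp* lie beyond 2-fold.

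Of 28 class I and class I-like heavy chain genes measured, 1 was called higher and 3 lower, and at the adjusted p alone 15 were higher and 4 lower (median log2 difference 0.22). *H2-M3*, which presents N-formylated peptides, rose 5.03-fold, from 4.87, 4.81 and 5.23 to 7.28, 7.39 and 7.23 (log2 difference 2.33, standard error 0.11, adjusted p = 6.95e-07 from limma). No STOSE value came near an M0505 value. *H2-T23*, which encodes the nonclassical molecule Qa-1, rose 1.82-fold (log2 difference 0.86, adjusted p = 0.000128), under the 2-fold threshold. Those called lower were *Cd1d1*, which presents lipids to natural killer T cells (−4.07-fold, adjusted p = 7.13e-07), *H2-M2* (adjusted p = 0.000101) and *Fcgrt*, the neonatal Fc receptor (−2.05-fold, adjusted p = 0.000175). The STOSE signal of *H2-M2* was under the background mark on all 3 arrays, and its fall was at least 1.33-fold against that mark. With each array centred on its median, 2 of the list were called higher and 1 lower, *H2-M2* and *Fcgrt* being under 2-fold.

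*Cd274* was low but above background on every array, at 5.94, 5.94 and 5.89 in M0505 cells and at 6.69, 6.48 and 6.45 in STOSE cells. Its rise was 1.53-fold (log2 difference 0.62, standard error 0.08, adjusted p = 0.000162 from limma), under the 2-fold threshold. The second PD-1 ligand gene, *Pdcd1lg2*, lay under background in both lines, with a log2 difference of 0.03 (95% interval −0.12 to 0.18, adjusted p = 0.694). Of 19 checkpoint ligands and their regulators, 0 were called higher and 2 lower, and at the adjusted p alone 10 were higher and 5 lower (median log2 difference 0.24). *Vtcn1*, which encodes the inhibitory ligand B7-H4, fell 18.4-fold, from 9.89, 9.98 and 9.90 to 5.51, 5.90 and 5.76 (log2 difference −4.20, standard error 0.10, adjusted p = 1.38e-08). *Icosl*, which encodes the ligand of the costimulatory receptor ICOS, fell 3.15-fold (log2 difference −1.66, adjusted p = 1.24e-06).

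The regulators of class I genes moved both ways. Of 22 listed, 3 were called higher and 5 lower, and at the adjusted p alone 12 were higher and 9 lower (median log2 difference 0.18). Called higher were *Nfyc*, given below, *Nfkb1* (2.02-fold, adjusted p = 7.49e-06 from limma) and *Nfkb2* (2.09-fold, adjusted p = 2.72e-05). *Nfkb1* and *Nfkb2* were named after their values were seen. The 3 called higher became 1 without M0505 replicate 3 and 1 without STOSE replicate 1, and the 5 called lower became 3 with each array centred on its median. *Stat2* and *Irf9*, which act in type I interferon signalling, fell 2.29-fold (adjusted p = 3.18e-06 from limma) and 2.47-fold (adjusted p = 3.74e-05), and *Irf7*, an interferon-inducible regulatory factor, fell 2.36-fold (adjusted p = 2.50e-05).

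*Irf1*, an interferon-inducible activator of class I genes, did not fall with these genes. It was at 8.86, 8.80 and 8.70 in M0505 cells and at 9.52, 9.33 and 9.25 in STOSE cells, a rise of 1.50-fold (log2 difference 0.58, standard error 0.08, adjusted p = 0.000400). *Nlrc5* had the smaller log2 difference of 0.29 (95% interval 0.06 to 0.53, adjusted p = 0.0365), and its lowest STOSE array, 8.12, met its highest M0505 array, also 8.12. This is the brightest of 19 probe sets that carry the symbol *Nlrc5*, whose log2 differences ranged from −0.08 to 0.61 with a median of 0.20, 17 of them above 0. Of the 19, 5 had means under the background mark in both lines. *Rfx5*, a subunit of the factor on the X box, fell 2.57-fold (adjusted p = 2.29e-05), and *Nfyc*, a subunit of the factor on the Y box, rose 2.60-fold (adjusted p = 4.07e-07). Of the X box only the X2 half-site TGACGC was searched, and not the rest of the box. This half-site and the Y box core stand in the *H2-K1* and *H2-D1* sequences printed above.

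Of 13 interferon receptors, kinases and related genes, 0 were called at 2-fold, and at the adjusted p alone 2 were higher and 7 lower. *Ifng* and *Ifnb1*, the genes of interferon-gamma and interferon-beta, had log2 differences of 0.13 (adjusted p = 0.116) and 0.01 (adjusted p = 0.907), with means of 4.82 and 3.95 in M0505 cells and of 4.95 and 3.96 in STOSE cells. Of 24 interferon-inducible genes outside the class I pathway, 0 were called higher and 3 lower, and at the adjusted p alone 4 were higher and 11 lower. The 3 were *Icam1*, an adhesion molecule for leukocytes (−12.9-fold, adjusted p = 2.21e-08 from limma), *Ly6e* (−5.62-fold, adjusted p = 7.39e-08) and *Irgm2*, an immunity-related GTPase (−2.30-fold, adjusted p = 3.95e-06). Without M0505 replicate 1, or without STOSE replicate 2, 5 were called lower. The 4 higher at the adjusted p alone were *Ifi47*, *Cxcl9*, *Cxcl10* and *Ifit3*, named after their values were seen, as was *Cd14* above. Interferon-inducible genes of the class I pathway were called in both directions, *Psmb8* and *Psmb10* higher and *Tapbp* lower.

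Of the 10 genes, 7 lie on chromosome 17, while *B2m* lies on chromosome 2, *Psmb10* on chromosome 8 and *Cd274* on chromosome 19. In the gene order of RefSeq, *Psmb9*, *Tap1*, *Psmb8* and *Tap2* follow each other between *H2-K1* and *H2-D1*. These neighbours differed from one another in direction, with log2 differences of 0.58, −0.59, 1.39 and 0.59. Of 78 other genes measured between *H2-K1* and *H2-D1*, 3 were called higher and 4 lower, beside 4.90% and 7.59% of all genes. Of the 78, 41 were not past the adjusted p, beside 8885 of all 20405 genes. The median log2 difference was 0.12 for the 78 and 0.08 for all genes. The 3 called higher were *Lsm2*, *Snord52* and *D17H6S56E-5*. The 4 called lower were *C2*, *H2-DMb2*, *H2-Ke6* and *D17H6S56E-3*. All of these were named after their values were seen. The complement gene *C2* had the largest difference of these, −3.95 on the log2 scale.

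**Figure D4:**
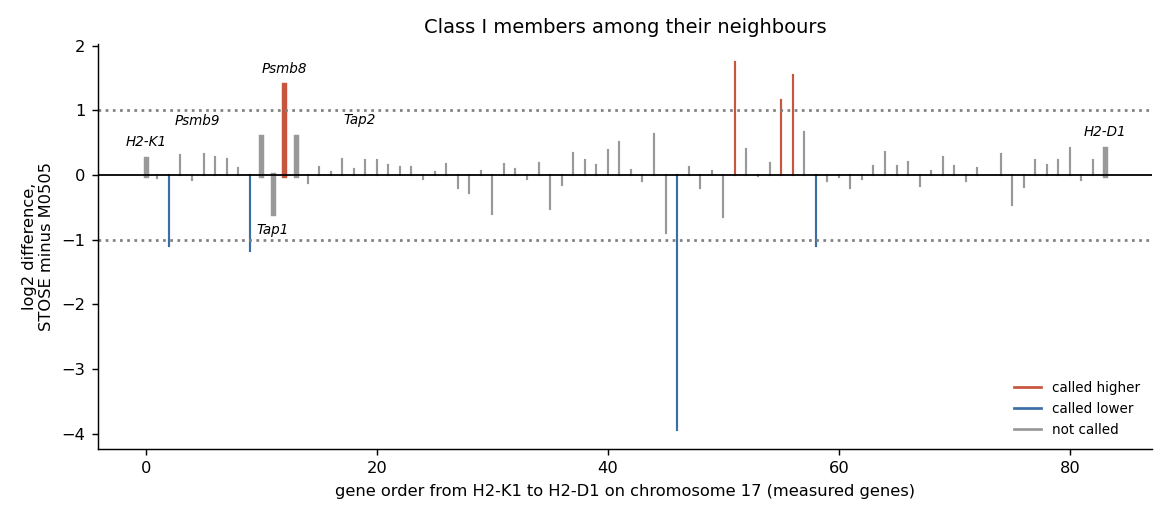
Log2 difference between STOSE and M0505 cells (vertical axis) of the measured genes from *H2-K1* to *H2-D1*, in the gene order of RefSeq (horizontal axis) and with thick bars for the genes described here. *Psmb9*, *Psmb8* and *Tap2* point up and *Tap1*, between them, points down, while most of the other bars lie within the dotted lines at 2-fold.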

How the data were processed

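The authors normalized the arrays by RMA (background correction, quantile normalization, summary per probe set) and deposited log2 values for 28944 probe sets. The submitters' processing notes name Affymetrix Expression Console. The software version and genome build are not given in the sources used here. The columns of means and linear fold changes were not used, and 0 columns of arrays were left unmatched. The 23530 probe sets with a symbol stood for 20405 genes, and where a gene had several, the one brightest on average over the 6 arrays was kept. STOSE and M0505 arrays were compared in limma 3.58.1 (lmFit, eBayes; R 4.3.3), two-sided, with no covariate and Benjamini-Hochberg adjustment over all genes, and the code was tested on simulated data. The 95% intervals use limma's moderated standard error. With 3 arrays a line, 0.1 is the lowest two-sided p an exact permutation test can reach, and the number of arrays limits the precision. The genes and lists were chosen with earlier results of these data known. From each list, up to 5 called genes with the largest differences were named, with fixed genes named whatever their values. Where all 3 arrays of a line lay under the background mark, the fold is a bound, with each such array set to that mark. Genes were matched by symbol or by a RefSeq synonym belonging to a single gene. The alternatives were normalization, filters on dim genes, the summary of probe sets, the methods' t-test, limma with trend and robust estimation, the thresholds, a replicate block and leaving out each array.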

Additional observations from a re-analysis of the deposited data

How the results depend on the processing

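None of the 10 genes changed direction under any alternative run. Centring each array on its median raised the median log2 difference of all genes by 0.20, moved the share of calls that were higher from 39.2% to 55.5% and took *Tapbp* to −0.89, which left 0 genes called lower. Without the dimmest 50% of genes, *Psmb8* and *Cd274* were not tested and 1 gene was called higher. By the adjusted p alone 8 were higher and 2 lower, at the same log2 differences: 0.25 for *H2-K1*, 0.41 for *H2-D1*, 0.24 for *B2m*, −0.59 for *Tap1*, 0.59 for *Tap2*, 0.58 for *Psmb9* and 0.62 for *Cd274*. Against limma's treat test of a 2-fold change, *Psmb8* (1.39, adjusted p = 0.0775), *Psmb10* (1.23, adjusted p = 0.273) and *Tapbp* (−1.09, adjusted p = 0.925) were not past the threshold, so that 0 were called higher and 0 lower. At the adjusted p, *B2m* was the only one of the 10 that was lost under some alternatives, with the methods' t-test (0.0930) and without each of 4 arrays. Leaving out each array in turn changed no call at 2-fold. With the replicate number as a block, *Tapbp* stayed at −1.09 and no call of the 10 changed. Same-numbered arrays deviated together with r = 0.26, 0.04 and 0.25 across genes, and not every array correlated best with its own number, so the numbers were not taken to pair the cultures. Among all genes treat called 1499, against 2548.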

Other observations

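The genes of MHC class II presentation, by which professional antigen-presenting cells show peptides to CD4+ T cells, were mostly near background. Of 12 measured, 6 had means in both lines below the background mark of 4.72, among them the class II chains *H2-Aa* (3.64 and 3.70) and *H2-Ab1* (3.77 and 3.90) and the transactivator *Ciita* (4.54 and 4.62). *Ifi30*, which encodes a lysosomal thiol reductase, was called higher, from 8.75, 8.95 and 8.80 in M0505 cells to 10.25, 10.24 and 10.18 in STOSE cells (2.61-fold, adjusted p = 9.01e-07 from limma). The invariant chain gene *Cd74* was called lower, from 6.37, 6.82 and 6.77 to 4.30, 4.42 and 4.44 (adjusted p = 1.01e-06), as was *H2-DMb2* (−2.27-fold, adjusted p = 5.41e-06). All 3 STOSE values of *Cd74* were under the background mark, and its fall was at least 3.81-fold against that mark. With each array centred on its median, 1 of the list was called lower.

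The ligands of NKG2D, a receptor by which natural killer cells recognize stressed cells, were measured for 6 genes. *H60a* was called higher, from 8.68, 8.46 and 8.60 in M0505 cells to 9.55, 9.60 and 9.73 in STOSE cells (2.06-fold, adjusted p = 9.44e-06 from limma). It was not called without M0505 replicate 2 or without STOSE replicate 3. At the adjusted p alone 2 of the 6 were higher and 0 lower. The other was *H60b*, from 7.66 ± 0.19 to 8.53 ± 0.05 (SD, n = 3), named after its values were seen. The *Raet1* genes are near-identical copies, and their probe sets cannot be read as separate genes.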
